A study of Mus musculus with 4 samples.

Results

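The miR-125 and miR-99/100 family was followed on 4 microarrays of L2-IL-1β mice. It comprises 6 of the 1265 mouse miRNA probes on each array, chosen by name: mmu-miR-125a-5p, mmu-miR-125a-3p, mmu-miR-125b-5p, mmu-miR-99a-5p, mmu-miR-99b-5p and mmu-miR-100-5p (the prefix mmu, for mouse, is left out below). L2-IL-1β mice carry human interleukin-1β under a viral promoter active in squamous epithelium of the mouth, esophagus and forestomach, and they develop esophagitis and a columnar metaplasia used as a model of Barrett's esophagus. The 4 groups were esophagus at 28 weeks, esophagus at 46 weeks, serum at 28 weeks and serum at 46 weeks, each with 1 array. All 4 carry the transgene, the Barrett's esophagus label and housing free of specific pathogens, and mice without the transgene were not analysed here. How many mice gave RNA for an array is not given in the sources used here. With 1 array per group no difference below has a replicate check, no test was possible, and differences are described by their size.

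MicroRNAs are short RNAs, cut from hairpins, that lower the output of messenger RNAs matching their seed, bases 2 to 8 from the 5′ end. A hairpin can give a miRNA from each of its arms, named 5p and 3p. The miR-125 branch is the vertebrate counterpart of worm lin-4, is known to repress Lin28a and Bak1, and acts in blood cell development and epithelial differentiation. The miR-99/100 branch is known to repress Mtor and Igf1r, which drive growth signalling. In mouse, genes of both branches sit beside a let-7 gene in clusters transcribed together.

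The mature sequences show the 2 seeds of the 5p strands and how close the members are (RefSeq, GRCm38.p6, with the seed in capitals). All 6 members had an entry there. The strand miR-125a-3p carries neither of these seeds but one of its own.
miR-125a-5p: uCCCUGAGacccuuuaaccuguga
miR-125b-5p: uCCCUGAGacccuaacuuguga
miR-99a-5p: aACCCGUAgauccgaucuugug
miR-100-5p: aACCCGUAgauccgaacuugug
miR-99b-5p: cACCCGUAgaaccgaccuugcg
miR-125a-3p: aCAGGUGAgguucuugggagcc
The 5p strands of miR-125a and miR-125b shared 1 seed, CCCUGAG, and the miR-99/100 strands shared another, ACCCGUA. Aligned, miR-125a-5p and miR-125b-5p had 21 identical bases, 1 substitution (C19U, counted from the 5′ end of miR-125a-5p) and 2 bases present in miR-125a-5p alone. The strands miR-99a-5p and miR-100-5p differed by 1 base of 22 (U16A, from the 5′ end of miR-99a-5p), and miR-99b-5p differed from miR-99a-5p by 4. Probe sequences were not used here, so how far the probes of such close strands read separately was not tested, and their values are uncertain in that respect.

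The hairpins lie in 3 clusters, all on the plus strand of GRCm38.p6. Mir99b, Mirlet7e and Mir125a lie within 692 bases at chr17:17830188-17830879, a span that overlaps the gene Spaca6. Mir100, Mirlet7a-2 and Mir125b-1 lie within 50.6 kb at chr9:41531425-41582002, which overlaps the long noncoding gene Mir100hg. Mir99a, Mirlet7c-1 and Mir125b-2 lie within 47.4 kb at chr16:77598936-77646343. The strand miR-125b-5p is encoded by both Mir125b-1 on chromosome 9 and Mir125b-2 on chromosome 16, so its probe reads the sum of both.

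For each spot the files give a median intensity and, from the area surrounding it, a median local background, both linear and in arbitrary units. The net signal is the spot median minus the mean of the 1664 BLANK spots of that array. All 6 members were detected on all 4 arrays (spot median above the BLANK mean plus 2 SD), as were 731 of the 1265 probes. All 6 were also above a stricter limit on all 4 arrays, as were 485 of the 1265 probes. The stricter limit is the mean plus 2 SD of the 97 spots without probe, and it lay at 51.1 to 64.0 units. The BLANK limit is low: it was passed by 76.9%, 74.2%, 79.1% and 67.4% of the 1265 probes on the arrays of esophagus at 28 and 46 weeks and serum at 28 and 46 weeks, but also by 77.3%, 40.2%, 40.2% and 39.2% of the spots without probe. Passing it is therefore not evidence of signal by itself, and the stricter limit is the one to read for dim probes. Spots without probe had an SD of 1.43 to 2.21 units, and the 16 spike-in spots had a coefficient of variation of 3.22% to 5.49%. Both were combined into a spot-noise SD, which covers neither the error of the local background nor any variation from mouse to mouse or from one extraction or hybridisation to the next.

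The miR-125a hairpin gave 2 strands with different profiles. The spot median of miR-125a-3p was 721 in esophagus at 28 weeks, 953 in esophagus at 46 weeks, 155 in serum at 28 weeks and 160 in serum at 46 weeks. Both esophagus arrays were far above both serum arrays. The spot median of miR-125a-5p was 215, 226, 187 and 229 in the same order. The serum array at 46 weeks was the brightest for this strand, and esophagus and serum overlapped.

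The spot median of miR-125b-5p, the seed relative of miR-125a-5p, was 864 at 28 weeks and 922 at 46 weeks in esophagus, and 506 and 499 in serum. Esophagus was above serum at both ages, and the ages were close within each sample type. In the miR-99/100 branch, miR-99a-5p read 314 and 344 in esophagus and 190 and 184 in serum, and miR-100-5p read 318 and 354 in esophagus and 167 and 170 in serum. Both strands, 1 base apart, were brighter on the esophagus arrays than on the serum arrays. The dimmest member, miR-99b-5p, read 109 and 113 in esophagus and 76.5 and 102 in serum, so the serum array at 28 weeks stood below the other 3. That array also had the lowest BLANK mean, 46.3 units against 52.9 to 56.4. Its spike-in spots were the dimmest too, with a net signal of 9324 against 12214 to 14441. Net signals of miR-99b-5p were 54.7 and 56.1 in esophagus and 30.3 and 49.3 in serum.

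**Figure D1:**
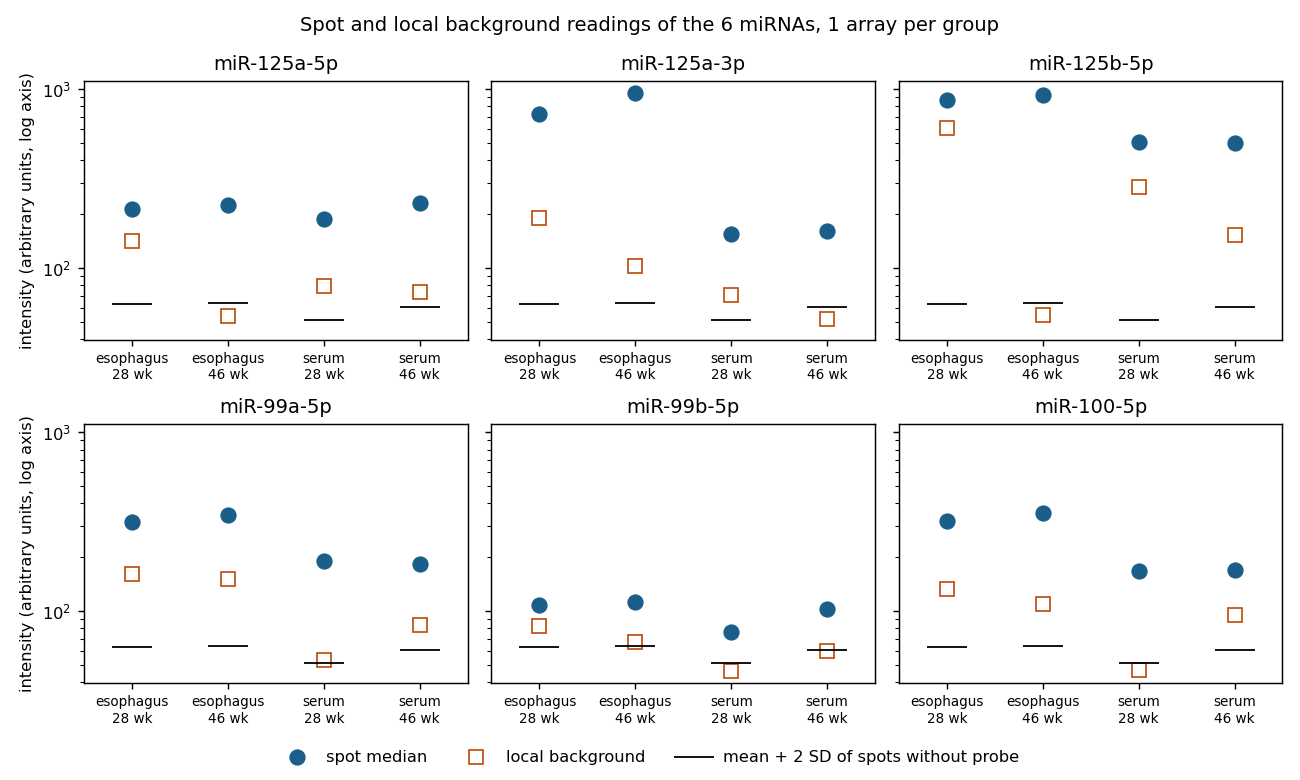
Spot median (filled circles), local background (open squares) and the limit set by spots without probe (bars) for each of the 6 miRNAs on the 4 arrays, in arbitrary intensity units on a log axis, 1 array per group. For miR-125b-5p in esophagus the spot read 864 and 922 at the 2 ages while its local background read 607 and 54.9.

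The local background was raised around many of these spots. It exceeded 1.5 times the array's median in 16 of the 24 member readings, against 8.70% of all probe readings, and all 6 members were above that level in esophagus at 28 weeks. For miR-125b-5p it was 607 units at 28 weeks and 54.9 at 46 weeks in esophagus, and 282 and 153 in serum. For miR-125a-5p it was 142 and 54.1 in esophagus and 79.3 and 73.2 in serum. These spots are neighbours on the array, and around miR-125b-5p the neighbouring probes had local backgrounds of up to 156 units in esophagus at 28 weeks and up to 54.1 at 46 weeks. Probes within 2-fold of a member's brightness are a closer comparison than all probes. In esophagus at 28 weeks their median local background was 134 units for miR-125a-3p and 169 for miR-125b-5p, against 51.4 over all probes of that array. Over the 24 member readings, 2.22% to 99.4% of such probes had a lower local background than the member. For miR-125b-5p in esophagus this share was 98.0% at 28 weeks and 2.22% at 46 weeks. For this reason values are given below with the local background (normexp correction with an offset of 50, then quantile normalization) and without it (quantile normalization of the spot medians).

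Esophagus was compared with serum at each age to see where the miRNAs of this family are found. The difference between sample types is the log2 level in esophagus minus that in serum. For miR-125a-3p it passed 4-fold at each age, with esophagus higher: it was 2.26 at 28 weeks and 2.09 at 46 weeks (spot-noise SD 0.09 and 0.10), and 2.21 and 2.32 without the local background. Its net signal was 667 and 897 in esophagus against 108.5 and 107.6 in serum. It was 1 of 6 members past 4-fold in either setting. Of the 731 probes detected on all arrays, 1.78% passed 4-fold toward esophagus at each age and 1.37% toward serum, and without the local background 2.60% and 1.37% did.

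The other strand of the same hairpin did not share this profile. For miR-125a-5p the difference between sample types was -0.23 at 28 weeks and -0.07 at 46 weeks (spot-noise SD 0.10 and 0.09), and 0.08 and -0.30 without the local background. The difference of miR-125a-3p exceeded that of miR-125a-5p by 2.48 at 28 weeks and 2.17 at 46 weeks. Over the 8 ways of processing shown in the plot of sample types this gap was between 2.12 and 3.00 at 28 weeks and between 2.17 and 3.18 at 46 weeks. An array's scale factor cancels in such a gap, but a different response of the 2 probes to a given amount of RNA does not, and was not tested. Because it cancels, net signals with median scaling, with spike-in scaling and in the authors' table gave the same gap, 2.42 and 3.12. The 8 ways are therefore not 8 separate checks of this gap or of the gaps below.

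For the hairpin Mir125b-1 the order of the strands was the reverse, with the limit that the 5p probe reads both miR-125b hairpins. The 3p strand of Mir125b-1, miR-125b-1-3p, was not a member but an opposite strand listed for comparison.
miR-125b-1-3p: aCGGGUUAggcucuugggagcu
Its spot median was 65.5 in esophagus at 28 weeks, 74.5 at 46 weeks, and 163 and 284 in serum. Both serum arrays were above both esophagus arrays, where the spot was close to the limit set by spots without probe. Its difference between sample types was -1.25 and -1.74 (spot-noise SD 0.08 and 0.10), -1.41 and -2.11 without the local background, and -3.28 and -3.74 in the authors' deposited value table. For miR-125b-5p that difference was 0.50 and 0.84, and 0.79 and 0.54 without the local background. The 3p difference minus the 5p difference was -1.75 at 28 weeks and -2.58 at 46 weeks, and over the 8 ways of processing it lay between -4.18 and -1.40 and between -4.63 and -2.58. The 3p strand of the other hairpin, miR-125b-2-3p, was near background on all 4 arrays with net signals of 7.33 to 10.3, below the limit set by spots without probe on 2 of them. Its difference minus that of miR-125b-5p lay between -0.83 and -0.19 at 28 weeks and between -1.14 and -0.47 at 46 weeks, so no order of strands is read for that hairpin.

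Among the miR-99/100 strands, miR-100-5p was higher in esophagus by a log2 difference of 0.66 at 28 weeks and 1.14 at 46 weeks (spot-noise SD 0.08 and 0.11), and miR-99a-5p by 0.17 and 0.53 (0.09 and 0.12). Without the local background these were 0.99 and 0.93 for miR-100-5p and 0.75 and 0.79 for miR-99a-5p. For miR-99b-5p the difference was 0.09 and -0.01, and 0.53 and 0.08 without the local background. In all settings tried, miR-125a-3p, miR-125b-5p, miR-99a-5p and miR-100-5p had differences above 0 at 28 and at 46 weeks, with esophagus the higher. The difference of miR-99a-5p was smaller than that of miR-100-5p in all 8 ways of processing, by a log2 gap between -0.61 and -0.25 at 28 weeks and between -0.79 and -0.14 at 46 weeks. The signs for miR-125a-5p at both ages and for miR-99b-5p at 46 weeks depended on the setting.

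**Figure D2:**
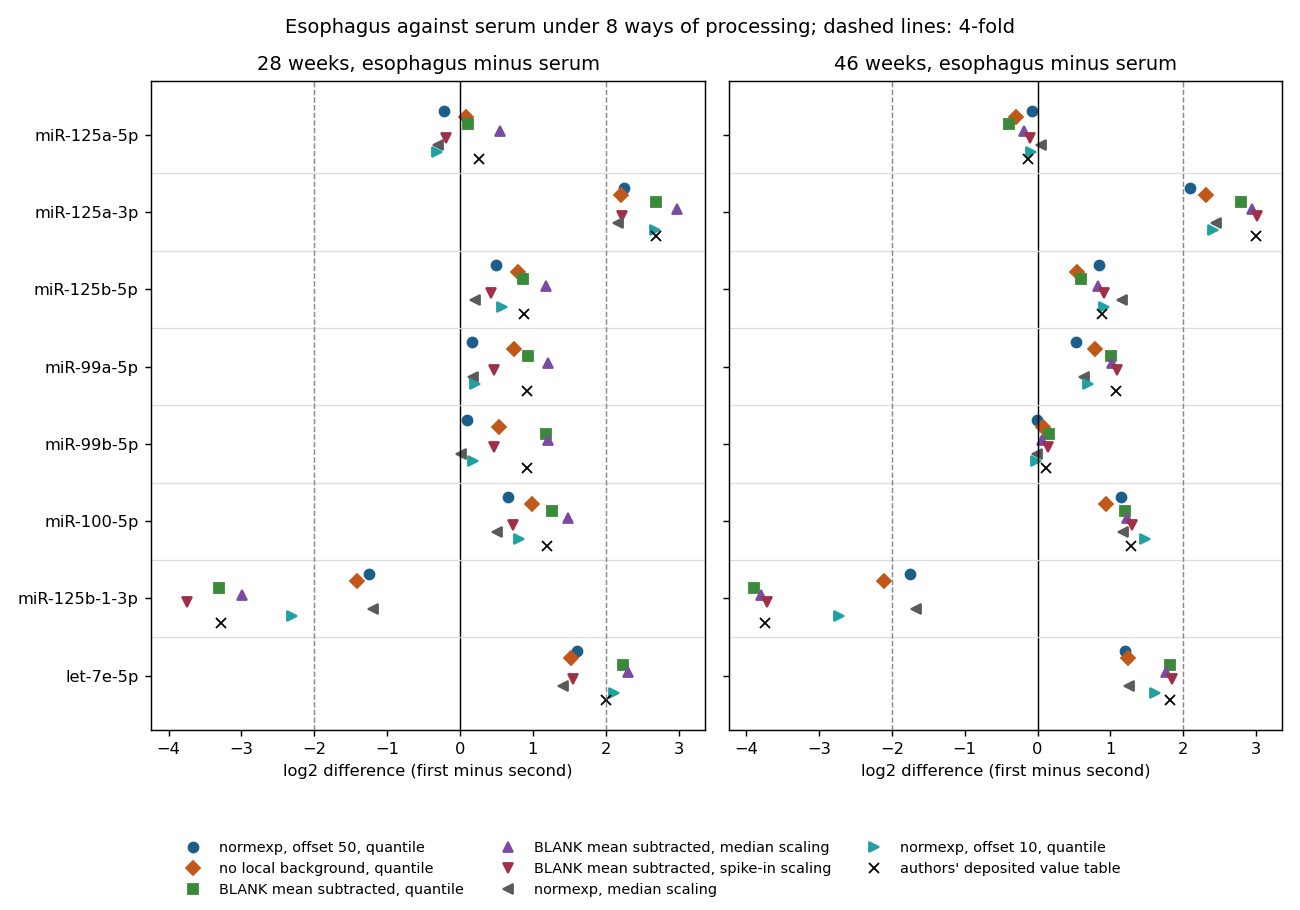
Log2 difference of esophagus minus serum (horizontal axis) at 28 and 46 weeks for the 6 miRNAs, the opposite strand miR-125b-1-3p and the cluster partner let-7e-5p, each symbol 1 way of processing, with dashed lines at 4-fold. Values of miR-125a-3p lie right of the 4-fold line at both ages, between 2.09 and 3.02, and those of miR-125b-1-3p lie left of 0.

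The order of the levels of each member over the 4 arrays followed from these values. With the local background, the 2 esophagus arrays of miR-125a-3p led at log2 levels of 9.44 and 9.30 and were within 2 spot-noise SD of each other, and the serum arrays followed at 7.35 and 7.05. For miR-100-5p the esophagus arrays stood at 8.10 and 8.05, also within 2 spot-noise SD, above serum at 7.39 and 6.95. All 4 levels of miR-99b-5p, from 6.29 to 6.53, lay within 2 spot-noise SD of their neighbour in the order with the local background. Serum at 28 weeks was the lowest in each setting, and it stood apart from the next array by 0.35 without the local background and by 0.91 for net signals scaled to the median, both beyond 2 spot-noise SD. For miR-125b-5p the order changed when the local background was left out, from esophagus at 46 weeks, serum at 46 weeks, esophagus at 28 weeks and serum at 28 weeks to both esophagus arrays above both serum arrays.

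Tissue and blood cell miRNAs moved with the comparison of esophagus and serum, and their part in the results was not tested. All cell type markers looked up were above the limit set by spots without probe on all 4 arrays, except the columnar miR-375-3p in esophagus at 28 weeks, with a spot median of 61.1 against a limit of 63.1. Of the squamous pair, miR-205-5p passed 4-fold toward esophagus at each age, as did both smooth muscle and all 3 striated muscle markers. With the local background, miR-203-3p missed 4-fold at 28 weeks only, with log2 differences of 1.38 and 3.15. Its net signals were 1638 and 1945 in esophagus against 18.7 and 62.7 in serum. Summed net signals at 28 and 46 weeks were 3067 and 3453 in esophagus against 54.1 and 242 in serum for the squamous pair. They were 5195 and 5261 against 257 and 224 for smooth muscle, and 7287 and 8665 against 859 and 162 for striated muscle. The 3 erythrocyte markers summed to 195 and 127 in esophagus and 37929 and 24709 in serum, and 2 of them passed 4-fold toward serum. No columnar, leukocyte, endothelial, stromal or hepatocyte marker passed 4-fold at both ages. The 4 columnar markers, miRNAs of glandular lining, summed to 98.3 and 147 in esophagus and 179 and 160 in serum. The extraction kit was mirVana for esophagus but miRNeasy Serum/Plasma for serum, and the effects of kit and of sample type cannot be told apart. In these bulk samples fewer cells of a type and less miRNA per cell cannot be told apart either.

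The ages were compared in esophagus to see whether levels of the family differed with age. The spots of the 5 members on 5p strands read 1.03 to 1.11 times as bright at 46 weeks as at 28 weeks, that of miR-125a-3p 1.32 times, and the net signal of the spike-in spots was 1.18 times as bright. With the local background, 1 of 6 members, miR-125b-5p, passed 2-fold upward from 28 to 46 weeks, with a log2 value of 1.17 (spot-noise SD 0.14), while 0 passed it downward. Among the 843 probes tested, 0.474% passed 2-fold upward and 0.237% downward. Without the local background 0 of 6 members passed, and 0% of the probes passed upward and 0.119% downward. The difference of miR-125b-5p was -0.16 (spot-noise SD 0.08) without the local background, and its net signals of 810 and 866 gave a ratio of 1.07.

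The next largest value with the local background belonged to miR-125a-5p, at 0.67 (spot-noise SD 0.09), and it also turned to -0.11 without it. The log2 differences of miR-125a-3p and miR-99b-5p were both 0.14, that of miR-99a-5p was 0.04 and that of miR-100-5p was 0.03. Without the local background the 5p members lay between -0.16 and -0.10 and miR-125a-3p at 0.10. The median over the 6 members was 0.14 with and -0.11 without the local background, and over all 843 probes it was 0.00 in both settings. The strand miR-125a-3p was the 1 member higher at 46 weeks in all settings tried, by 0.10 to 0.55, short of 2-fold. Its spot-noise SD was 0.09 with the local background.

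In serum no member reached 2-fold between ages in any setting tried. Among the 822 probes tested, 1.22% passed 2-fold upward and 1.22% downward with the local background, and 1.09% each way without it. The strand miR-99b-5p was the 1 member higher at 46 weeks in all settings tried. Its net signal was 30.3 at 28 weeks and 49.3 at 46 weeks. Its log2 difference was 0.25 (spot-noise SD 0.07), 0.38 (0.06) without the local background and 0.89 (0.15) for net signals scaled to the median. The differences of all 822 probes had an SD of 0.33, 0.31 and 0.65 in these settings, in the same order. Scaled to the spike-in spots, the net signals of miR-99b-5p gave 0.12, smaller than their spot-noise SD of 0.15. This member was dim, and the offset of 50 draws differences of dim probes toward 0.

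Cell type markers also differed between the same 2 serum arrays, and their part in the members' values was not tested. The net signal of the hepatocyte marker miR-122-5p was 591 at 28 weeks and 70.0 at 46 weeks, a log2 difference of -2.83. The 3 leukocyte markers summed to 1010 and 1811, with net signals of 526 and 1306 for miR-223-3p and 33.9 and 55.7 for miR-142-3p. The third, miR-150-5p, had a log2 difference of 1.01 with the local background although its net signals were 450 and 449. The squamous marker miR-205-5p stood at 1.47, with net signals of 35.4 and 179, and the 3 striated muscle markers lay between -1.60 and -1.25. In esophagus miR-122-5p had net signals of 20.8 and 107 and the leukocyte markers summed to 652 and 769. With the local background, the markers past 2-fold between the esophagus arrays were miR-203-3p at 2.51, miR-1a-3p at 1.12 and miR-144-3p at -1.09. Their net signals were 1638 and 1945, 3020 and 3581, and 80.9 and 8.01, in that order. The part of these markers in the members' values was not tested either.

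The other miR-99/100 strands did not follow miR-99b-5p in serum. In serum the log2 difference was -0.32 for miR-99a-5p and -0.41 for miR-100-5p (spot-noise SD 0.10 each), and -0.10 and -0.02 without the local background. The difference of miR-99b-5p exceeded that of miR-99a-5p by 0.58, and by 0.48 to 0.99 over the 8 ways of processing. In esophagus the same gap was 0.09, with a range of -0.11 to 0.21. In the miR-125 branch, miR-125b-5p stood at 0.68 in serum, miR-125a-5p at 0.45 and miR-125a-3p at 0.30 (spot-noise SD 0.16, 0.10 and 0.09), and without the local background at 0.10, 0.30 and 0.02. The median over the 6 members was 0.28, or 0.06 without the local background, against 0.00 and 0.01 over all 822 probes.

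The scale of the serum arrays moved these values. The spike-in spots were 1.5 times as bright in net signal at 46 weeks. With net signals scaled to the spike-in spots, the median over all 822 probes was -0.72, with 5 probes (0.608%) past 2-fold upward and 245 (29.8%) downward, against 10 and 10 with the local background and quantile normalization. On that scale miR-99b-5p stood at 0.12, miR-125a-5p at -0.26, miR-125a-3p at -0.60, miR-125b-5p at -0.63, miR-100-5p at -0.64 and miR-99a-5p at -0.73. Relative to the median of that scale miR-99a-5p was thus slightly lower and the other 5 members were higher. In the authors' deposited value table the median was -0.25 and the differences were 0.58 for miR-99b-5p, 0.21 for miR-125a-5p, -0.14 for miR-125a-3p, -0.17 for miR-125b-5p and miR-100-5p and -0.27 for miR-99a-5p.

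**Figure D3:**
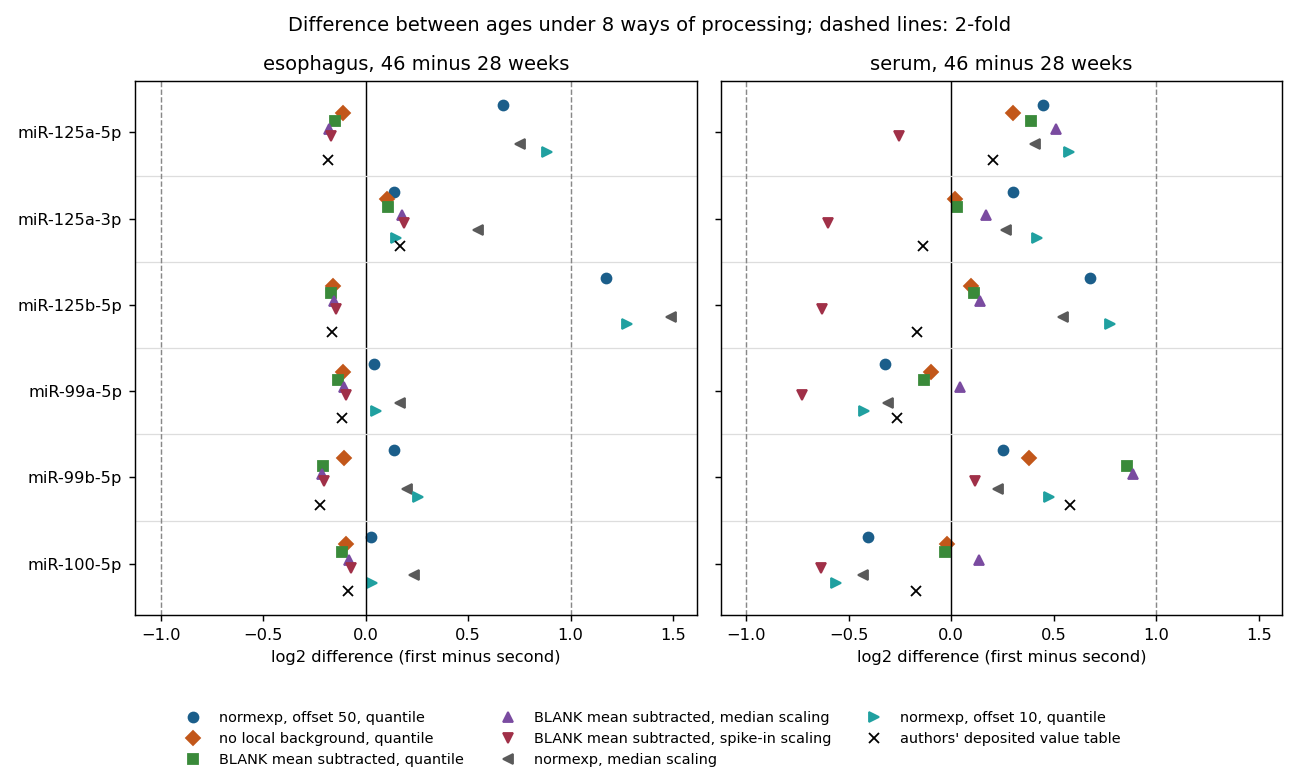
Log2 difference of 46 minus 28 weeks (horizontal axis) in esophagus and serum for the 6 miRNAs, each symbol 1 way of processing, with dashed lines at 2-fold. In esophagus miR-125b-5p lies at 1.17 or more in the 3 settings that use the local background and between -0.17 and -0.15 in the other 5.

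The strands and genes next to the members were read as a related list of 13 probes. It held the 5 opposite strands, both strands of miR-351, and 6 let-7 strands. Of the 13, 8 were detected on all 4 arrays, against 731 of all 1265 probes. In esophagus 1 of 9 related probes detected at both ages, let-7a-5p, passed 2-fold downward with the local background, at -1.15 (spot-noise SD 0.18). Of the 843 probes 0.237% did. None of the 9 passed without the local background, and the net signals of let-7a-5p were 1329 at 28 weeks and 1402 at 46 weeks. In serum 0 of 10 reached 2-fold with the local background, against 1.22% of the 822 probes in each direction. With net signals scaled to the spike-in spots 1 of 10 passed downward, against 29.8% of the probes. The nearest to 2-fold with the local background was miR-125b-1-3p at 0.65 (spot-noise SD 0.11), which stood at 0.83 without the local background. For net signals scaled to the median miR-125b-1-3p stood at 1.16, where 7.79% of the probes passed 2-fold upward. Its net signal in serum went from 117 to 231 between 28 and 46 weeks, while that of miR-125b-5p was 460 and 446. Its local background was also higher, at 66.6 and 115 units.

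The let-7 partners of the 3 clusters repress growth and proliferation genes and are abundant in differentiated tissue. The partner of miR-99b and miR-125a, let-7e-5p, had spot medians of 278 and 293 in esophagus and 104 and 117 in serum. Its difference between sample types was 1.61 and 1.21, between those of miR-125a-3p and of the 5p strands of its cluster. In serum with age it stood at 0.03, or 0.09 without the local background, against 0.25 and 0.38 for miR-99b-5p and 0.45 and 0.30 for miR-125a-5p from the same cluster. The strands let-7a-5p and let-7c-5p, which other hairpins also encode, gave values that depended on the local background, which read 889 units around let-7a-5p in esophagus at 46 weeks. The difference between sample types of let-7a-5p was 0.38 and 0.10 with the local background and 0.28 and 0.37 without it, and over the 8 ways of processing it lay between 0.27 and 1.02 at 28 weeks and between 0.10 and 0.83 at 46 weeks. For let-7c-5p it was 0.18 and 0.02, or 0.21 and -0.11 without the local background, and its sign depended on the setting at each age.

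The seed relative miR-351-5p carries the miR-125 seed and comes from chromosome X.
miR-351-5p: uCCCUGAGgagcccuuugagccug
Its spot median was 81.7 and 83.0 in esophagus and 93.8 and 97.8 in serum. Its difference between sample types was -0.24 and -0.25 (spot-noise SD 0.06 and 0.07), and without the local background -0.17 and -0.34. Its net signal was 27.6 and 26.6 in esophagus against 47.6 and 44.9 in serum, and over the 8 ways of processing the difference lay between -1.17 and -0.17 at 28 weeks and between -0.88 and -0.25 at 46 weeks. Its log2 difference with age was -0.07 in each sample type, with a range of -0.34 to -0.01 in esophagus and of -0.67 to 0.10 in serum, where the sign turned. It was lower in esophagus than in serum in all 8 ways of processing, unlike miR-125b-5p with the same seed. Of the remaining strands, miR-99b-3p was dim on all 4 arrays with net signals of 10.6 to 12.5. The net signals of miR-99a-3p, miR-100-3p, miR-351-3p, let-7a-2-3p, let-7c-1-3p and let-7e-3p were 15.0 or less on every array.

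Probes with the profile most like each member were found over the 4 arrays by the root mean square difference of centred log2 net signals, among probes of similar level. For miR-99a-5p they were miR-187-5p (0.05), miR-26b-5p (0.14) and miR-100-5p (0.15), and for miR-100-5p they were miR-3072-3p (0.09), miR-187-5p (0.14) and miR-652-5p (0.14), with miR-99a-5p at rank 4 (0.15). For miR-125b-5p they were miR-3107-3p (0.07), miR-29a-3p (0.09) and the endothelial miR-126-3p (0.12), and miR-99a-5p had rank 4 (0.17). For miR-99b-5p they were the stromal miR-214-3p (0.07), miR-210-3p (0.14) and miR-10b-5p (0.15). For miR-125a-5p they were miR-1934-3p (0.06), miR-1931 (0.08) and miR-22-3p (0.12). For miR-125a-3p they were miR-1195 (0.23), miR-6402 (0.29) and miR-27b-3p (0.31), and the other strand of its hairpin ranked 71 of 147 at 1.45. The median over candidates was 0.58 to 1.47, and 4 arrays give such a measure little to separate probes by.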

How the data were processed

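Per the labels' protocols, RNA labelled with Hy5 was hybridised to Toray 3D-Gene arrays, which read 1 colour. The deposited scanner files hold intensity values per spot (median and local background), with 3 gains joined by a fitted line per the file headers, neither background-corrected nor normalized. The authors' deposited value table holds intensity values that equal the spot median minus about the BLANK mean, times 1 factor per array, with the listed median at 25. Deposited values departed from a line fitted to the spot medians of each array by at most 0.0515 units.

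All spots, control spots included, were corrected together with normexp (limma 3.58.1, R 4.3.3, offset 50). The miRNA probes, without the control spots, were then log2-transformed and quantile-normalized. This was done within a sample type for ages and over the 4 arrays for esophagus against serum. Files were read with jsonlite 2.0.0, tables and figures made with Python 3.11.15, pandas 2.3.3, numpy 2.4.6 and matplotlib 3.10.9. The steps were tested on simulated data. The simulated local background did not vary with spot brightness, so that test does not cover the raised local background seen around spots here.

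Differences were counted at 2-fold between ages and 4-fold at both ages between sample types. Alternatives left out the local background, subtracted the BLANK mean, scaled to the median or the spike-in spots, used an offset of 10, changed the detection filter, or used the authors' table. All members are named, as are the related list, the marker lists and the 3 probes nearest in profile within a log2 level of 2. The members and lists were chosen with earlier results of these data known. Each group had 1 array, so the number of arrays limits the precision.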

Additional observations from a re-analysis of the deposited data

Results flagged for a closer look

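Some members had differences of opposite sign in the 2 sample types or at the 2 ages, and whether they truly differ was not tested. Between ages, miR-99a-5p stood at 0.043 on the log2 scale in esophagus against -0.32 in serum, and miR-100-5p at 0.026 against -0.41. For both, the esophageal value was smaller than its spot-noise SD of 0.11 and 0.09. Without the local background the values were -0.11 and -0.10 for miR-99a-5p and -0.10 and -0.02 for miR-100-5p, of one sign. Between esophagus and serum, miR-99b-5p stood at 0.092 at 28 weeks and -0.013 at 46 weeks, and at 0.53 and 0.08 without the local background.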

How the results depend on the processing

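The count of members past 2-fold in esophagus between ages was 1 with the local background and 0 under the 5 alternatives that do not use it. There miR-125b-5p reversed: to -0.16 for spot medians, to -0.17, -0.16 and -0.15 for net signals with quantile, median and spike-in scaling, and to -0.16 in the authors' table. The counts of 0 in serum and 1 between sample types held under all 9 alternatives. Of 24 member differences, 11 kept 1 sign in all settings, 9 of them between sample types. The 2 changes of the detection filter left every member's value as it was. Over all probes the counts ranged from 0 to 13 higher and 1 to 13 lower in esophagus (4 and 2 reported), 5 to 64 and 9 to 245 in serum (10 and 10), and 11 to 39 and 10 to 37 between sample types (13 and 10). No paired analysis was possible because each group had 1 array. Dim members, above all miR-99b-5p, are limited by signal over background.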
